A study of Mus musculus with 29 samples.

Results

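Regulatory T (Treg) cells made in culture were set against the naive CD4 T cells they were made from, in mouse spleen RNA measured by sequencing of tags at the 3' ends of polyadenylated transcripts. The genes described are all those at 1 or more CPM (a gene's share of the reads counted in a library, per 1e6 reads) in at least 3 of the 6 libraries, which were 13075 of the 54532 genes in the table. Every group came from C57BL/6 mice. The naive group held 3 libraries of splenic naive CD4 T cells that were not cultured. The Treg group held 3 libraries of such cells after 5 days of stimulation in vitro, with 15 ng/ml of IL-2 and 10 ng/ml of hTGFb (human TGF-beta). Another group, Th0, held 3 libraries of cells kept for 5 days with 15 ng/ml of IL-2 and without hTGFb, and is used here for the estimate of the spread and to set each change beside that of another culture. The labels name the Treg group for its culture condition and name no sort for Foxp3-expressing cells, so these values are those of whole cultures. Stimulation, IL-2, TGF-beta and the days in culture all differ between Treg and naive cells, and their parts cannot be told apart from this comparison.

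Naive CD4 T cells are small resting cells that recirculate between blood and lymphoid organs, held at rest by transcription factors such as Foxo1, Klf2 and Tcf7. Stimulation through the T cell receptor takes them into growth and division. IL-2 keeps them dividing through Stat5, and TGF-beta acts through the kinases Tgfbr1 and Tgfbr2 and the transcription factors Smad2 and Smad3 to turn on Foxp3, the factor that defines Treg cells.

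The libraries held 797612 to 855458 reads in naive, 816391 to 943873 in Th0 and 928709 to 1551478 in Treg, and 13247 to 14454 genes above 0 in the 6 libraries compared. Whether the libraries of a group stand for separate mice or cultures is not in the labels, and the p-values below then rest on a spread that may be only technical. Each p was adjusted by Benjamini and Hochberg over all 13075 genes in limma, a linear model with shared variance across genes, on log2(CPM + 1). A log2 change here is Treg minus naive on that scale, where genes with few reads show less than their full change, and a change given below without a unit is that log2 change. As shares of a library, these values cannot tell fewer cells of a type from less RNA per cell, nor a fall of a gene from a rise of the rest.

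The T cell markers were present in all libraries. Cd3e, a chain of the T cell receptor complex, was at 604, 549 and 491 CPM in naive and 354, 423 and 332 CPM in Treg libraries, and Cd4 was at 288, 316 and 367 CPM in naive and 171, 198 and 205 CPM in Treg. All 6 T cell markers were lower in Treg, where 18.1% of all genes tested were, with summed levels of 3069 to 3196 CPM in naive and 2243 to 2574 CPM in Treg. Markers of other cells were mostly lower in Treg too. The 15 B cell markers, 14 of them tested, summed to 396 to 940.4 CPM in naive and 127 to 137 CPM in Treg, with Igkc and Fcer2a at 0 in all 3 Treg libraries. A count of 0 in the shallowest Treg library allows up to 3.23 CPM (3 reads), for counting error only. The red cell list (haemoglobins and other erythroid genes) went from 502 to 1185 CPM to 0 to 4.51 CPM, the plasma cell list from 19.9 to 43.9 CPM to 0 to 1.93 CPM, and the myeloid list from 67.8 to 157 CPM to 51.9 to 61.4 CPM. The CD8 pair Cd8a and Cd8b1 summed to 11.3 to 16.1 CPM and 4.31 to 8.38 CPM. The summed list for NK and gamma-delta cells went the other way, from 53.8 to 84 CPM to 166 to 211 CPM. Of its 8 members 2 rose and 4 fell, beside 25.2% and 18.1% of all genes tested. Its members Ncr1, Klrb1c and Tyrobp were at 0 in the Treg libraries. Most of the rise of the sum was that of Tcrg-C2, a constant segment of the gamma T cell receptor chain. Tcrg-C2 was at 7.52, 6.19 and 1.17 CPM in naive, 7.42, 5.55 and 12.2 CPM in Th0 and 128, 133 and 119 CPM in Treg.

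**Figure D1:**
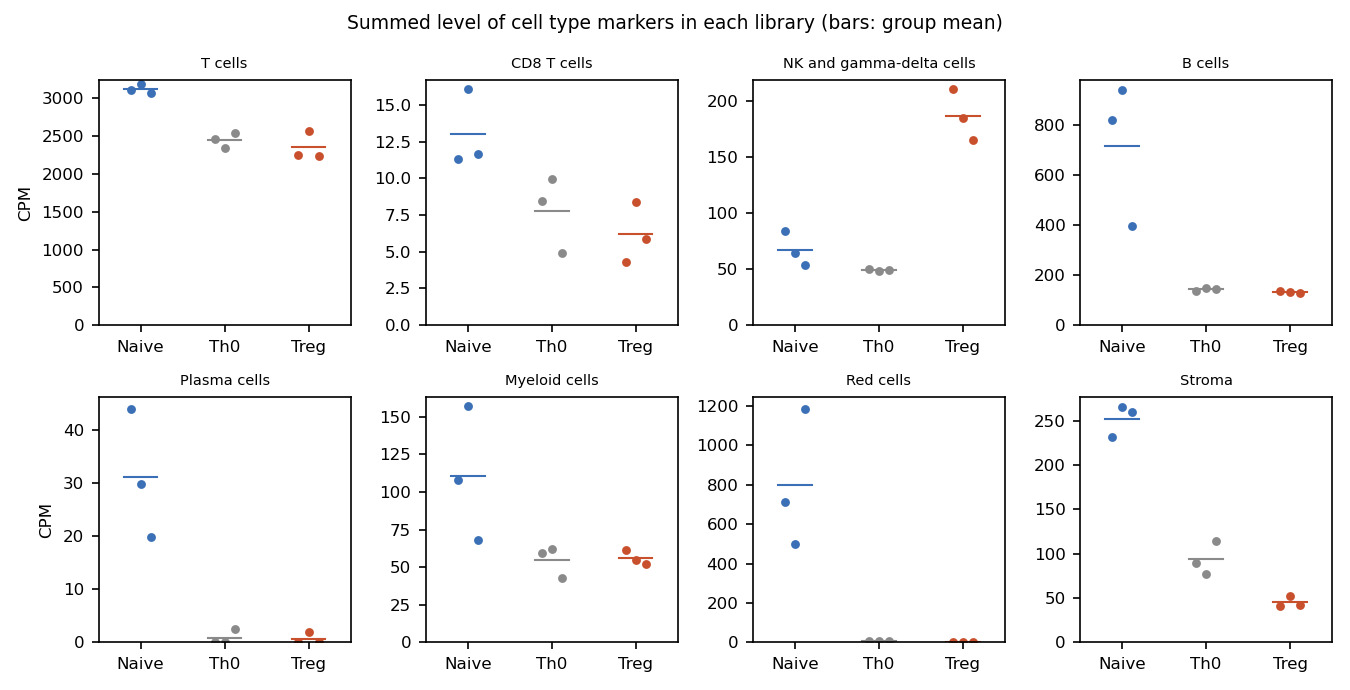
Summed CPM (y axis) of marker lists for 8 cell types in each of the 9 libraries, with points for libraries, bars for group means and the groups along the x axis. B cell and red cell markers were higher in each naive library than in any Treg library, and T cell markers were present throughout.

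Treg and naive cells differed in a large part of the genes measured. Of 13075 genes, 3293 (25.2%) were higher in Treg, 2369 (18.1%) were lower, and 5662 (43.3%) changed in either direction at an adjusted p below 0.05. An unadjusted p below 0.05 was reached by 6534. Quantile scaling, which gives all libraries 1 distribution of values and moved the changes by a median of -0.17, gave 2723 higher and 2898 lower. The 3 Treg libraries did not overlap the 3 naive libraries for 3168 of the 3293 genes called higher and 2285 of the 2369 called lower. These counts were taken within genes already called, where a small spread is required, so they add no support to the calls. Changes of at least 2-fold on the log2 scale were made up of 2089 rises and 1421 falls, and the largest changes were mostly rises: 177 genes rose and 32 fell by a log2 change of 4 or more. Of the 7413 genes not called, 2972 had a 95% interval of the change that lay within 2-fold in each direction. The genes called higher took 19.37% to 19.997% of the reads in naive and 39.7% to 41.2% in Treg libraries, and those called lower took 46.1% to 46.6% in naive and 25.6% to 26.9% in Treg. The median change over all genes tested was 0.07.

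**Figure D2:**
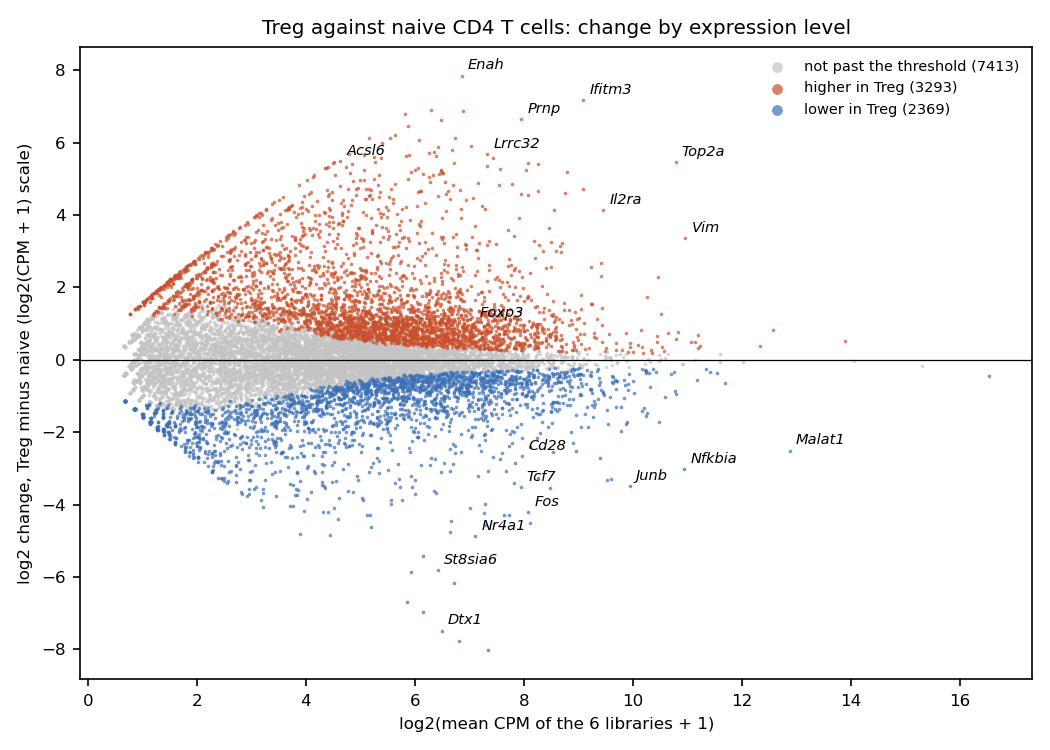
Log2 change of each of the 13075 genes, Treg minus naive (y axis), against the log2 of its mean CPM over the 6 libraries (x axis). Red points are the 3293 genes higher in Treg, blue points the 2369 lower and grey points the 7413 not past the threshold, and the rises reach further from 0 than most of the falls.

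**Figure D3:**
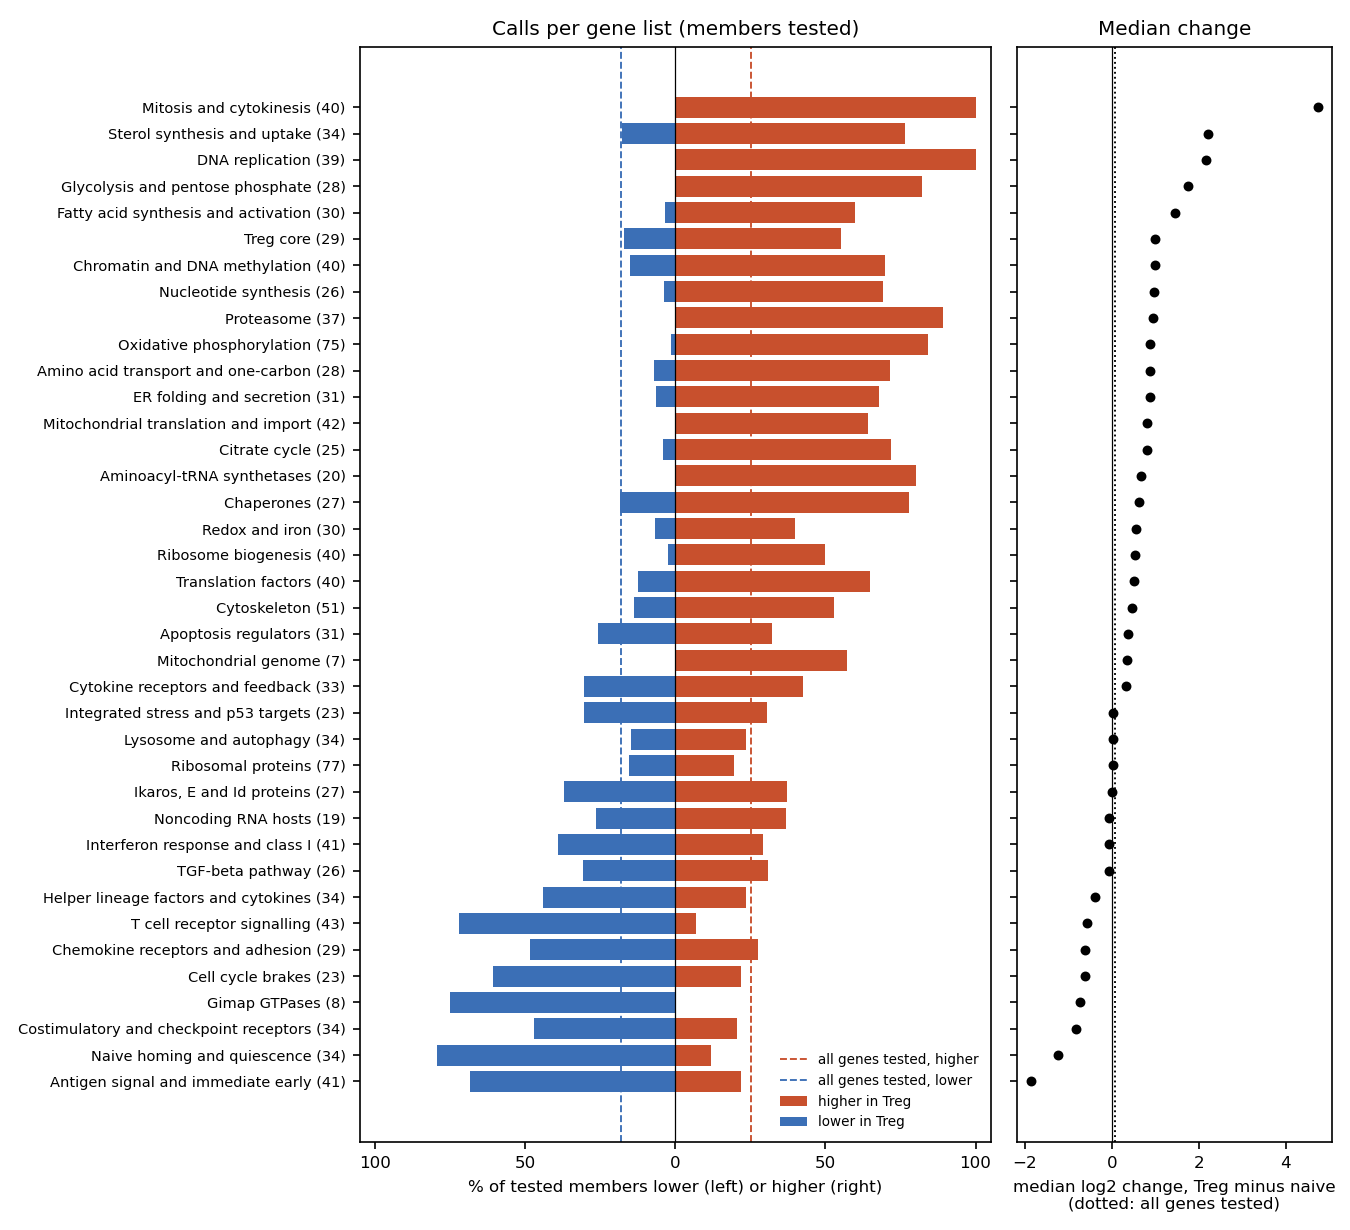
Left, the share of tested members of each of 38 gene lists that were higher (right, red) or lower (left, blue) in Treg, with dashed lines at the 25.2% and 18.1% of all genes tested. Right, the median log2 change of each list, with a dotted line at the 0.07 of all genes. Lists of division, sterol synthesis and glycolysis lie at the top, and lists of immediate early and naive genes at the bottom.

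Genes of DNA replication rose as a whole list. All 39 members were higher in Treg, with a median change of 2.18 against 0.07 over all genes, and the list took 0.0919% to 0.102% of the reads in naive and 0.423% to 0.449% in Treg. The 6 subunits of the Mcm2-7 helicase, which opens DNA at origins, rose with a median of 2.38, the 4 GINS subunits with 2.78, and the 8 polymerase and primase subunits with 2.11. Mcm5 was at 22.6, 18.6 and 17.5 CPM in naive and 124, 129.6 and 118 CPM in Treg libraries. The lowest Treg library lay far above the highest naive one, and the change was 2.61 (SE 0.15, adjusted p = 6.8e-11). Cdc6, which loads the helicase, rose by 4.51, Clspn by 4.57, Mcm10 by 4.53 and Uhrf1, which carries DNA methylation through replication, by 4.34. Pcna, the sliding clamp, was already at 110.3, 113 and 88.8 CPM in naive cells and rose to 178, 184 and 193 CPM, a change of 0.83. In Th0 the list took 0.452% to 0.471% of the reads.

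Replication genes are known targets of E2F factors. Promoter sequence from RefSeq (GRCm38.p6), taken as the 250 bases before the start, was at hand for 32 of the 39 genes, and the E2F forms TTTCCCGC or TTTGGCGC, on either strand, stood in 6 of them (18.8%): Mcm5, Mcm6, Mcm7, Cdc6, Gins3 and Pola1. The same forms stood in 1.35% of all 27025 promoters of that length and in 2.87% of those of the genes tested. They stood in 4.15% of those of the genes called higher and in 1.45% of those of the genes called lower. The 3 with the largest rise are shown 5' to 3' in the direction of the gene, with the match in capitals (GCGGGAAA and GCGCCAAA are the 2 forms read on the other strand), since they show where the letters stand in genes that rose.
Cdc6, chr11:98907989-98908044, plus strand: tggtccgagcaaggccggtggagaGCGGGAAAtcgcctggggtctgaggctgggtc
Mcm5, chr8:75109336-75109391, plus strand: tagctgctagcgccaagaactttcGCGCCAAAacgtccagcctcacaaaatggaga
Mcm7, chr5:138172017-138172072, minus strand: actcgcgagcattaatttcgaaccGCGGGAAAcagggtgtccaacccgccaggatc
A match is a run of letters and no evidence of binding.

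Of 26 genes of nucleotide synthesis 18 rose, 1 fell and 7 did not pass. Rrm2, the small subunit of ribonucleotide reductase, went from 5.01, 3.72 and 2.34 to 165, 155 and 149 CPM (5.11), Tk1 (thymidine kinase) rose by 4.67, and Tyms (thymidylate synthase) by 3.14. Of the enzymes of purine synthesis, Pfas rose by 1.76 and Paics by 1.71, with Adsl at 0.07 and Gmps at 0.29 not past the threshold. Ctps2, a CTP synthase, fell from a mean of 15.8 to 3.67 CPM while its paralog Ctps rose by 1.69.

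Mitosis had the highest median of the 38 lists. All 40 genes were higher, with a median change of 4.73, and together they went from 0.0361% to 0.0483% of the reads in naive to 1.12% to 1.21% in Treg. Top2a, the topoisomerase that untangles chromosomes, was at 97.8, 79.3 and 58.4 CPM in naive and 3302, 3459 and 3574 CPM in Treg (5.47, SE 0.12, adjusted p = 1.1e-16). The groups were separated by more than an order of magnitude with no overlap. Mki67, the proliferation antigen, was at 53.9, 19.8 and 31.6 CPM in naive and 745, 742 and 993 CPM in Treg. The cyclins Ccna2 and Ccnb1 rose by 5.88 and 4.86, the kinase Cdk1 that they activate by 5.35, the checkpoint kinase Ttk by 5.64 and the spindle factor Tpx2 by 5.59. The smallest change in the list was that of Kif23, a kinesin of the midbody, at 2.63. The share of the list in Th0 was 1.15% to 1.18%.

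Promoters of genes of late division often carry a CHR element (TTTGAA) near CCAAT boxes. Of 33 mitosis genes with a promoter sequence, 10 (30.3%) held TTTGAA on either strand and 25 (75.8%) held CCAAT, against 16.3% and 34.5% of all promoters. Neither form contains the other, and matches of CCAAT on opposite strands can share bases, as in Ube2c. The stretches of 3 genes with the largest rises show the CHR letters in capitals, as TTTGAA or, read on the other strand, TTCAAA.
Top2a, chr11:99024190-99024236, minus strand: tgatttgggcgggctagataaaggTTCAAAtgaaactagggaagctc
Cdk1, chr10:69352954-69353007, minus strand: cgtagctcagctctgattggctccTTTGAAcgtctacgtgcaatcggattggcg
Ube2c, chr2:164769876-164769928, plus strand: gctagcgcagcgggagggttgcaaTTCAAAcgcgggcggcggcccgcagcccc

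Chromatin genes that package new DNA rose with division. In the list of chromatin and DNA methylation 28 of 40 genes rose (70%, beside 25.2% of all genes tested) and 6 fell (15%, near the 18.1% of all). Hist1h1b, a linker histone, went from 2.51, 2.48 and 1.17 to 137, 138 and 206 CPM, Asf1b, a histone chaperone, rose by 4.22, Hmgb2 by 3.15 and Ezh2, the methyltransferase of Polycomb complex PRC2, by 2.78. The DNA methyltransferase Dnmt1, which copies methylation to new strands, rose by 1.65, and Dnmt3b by 1.41, while Dnmt3a was at -0.25 and not past the threshold. The members that fell were Tet1 (-2.66) and Tet3 (-0.96), which oxidise methylcytosine, the demethylases Kdm6b (-2.05) and Kdm5b (-1.15), Kmt2a (-1.30) and Bptf (-0.80). Tet1 was at 32.6, 35.9 and 30.4 CPM in naive, 20.1, 20 and 15.9 in Th0 and 3.23, 6.45 and 3.92 in Treg, and the difference from Th0 also passed (-1.87, adjusted p = 0.00075).

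Genes that hold cells out of the cycle moved both ways. Of 23 brakes 14 fell (60.9%, beside 18.1% of all genes tested) and 5 rose (21.7%, near the 25.2% of all). Klf4 fell from 46.4, 49.6 and 39.7 CPM to 1.08, 0.645 and 1.96 CPM (-4.41), and Btg1, an antiproliferative gene of resting lymphocytes, from 1325, 1339 and 1335 to 109.8, 137 and 154 CPM. Tsc22d3, a glucocorticoid target, changed by -3.21 and Txnip, an inhibitor of glucose uptake, by -1.78. Cdkn1a, an inhibitor of cyclin-dependent kinases, rose instead, from 17.6, 17.3 and 29.2 to 502, 617 and 435 CPM (4.56), as did Cdkn2c (3.08). Cdkn1b, the inhibitor that is high in resting T cells, fell by less (-0.48), and Rb1 (0.02) did not pass.

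Ribosomal protein genes, which make up the ribosome itself, stood near the background: 15 of 77 rose, 12 fell, and the median change was 0.02. These counts moved with the method, from 5 to 26 higher and 5 to 25 lower over the other settings. Rps27 fell from a mean of 2322 to 1204 CPM (-0.95), whereas Rps13 (1453 and 1478 CPM, 95% interval of the change -0.13 to 0.17) and Rps15a (interval -0.16 to 0.18) did not pass the threshold. Ribosome biogenesis had 20 of 40 genes higher and 1 lower, Polr1a (-0.87), the largest subunit of RNA polymerase I. Nop58 of the box C/D particles rose by 1.15, nucleolin (Ncl) by 0.77 and nucleophosmin (Npm1) by 0.95, and the last 2 were lower in Treg than in Th0 (-0.30 and -0.41). The E-box letters CACGTG stood in 1 of 35 promoters of ribosome biogenesis genes (2.86%), against 6.04% of all promoters and 8.68% of those of the genes tested. Among translation factors 26 of 40 rose, among them Eif4ebp1 (2.41), which binds the cap-binding factor, and Eif5a (1.63), while Eif1 (-1.08), Eif4a2 (-0.82), Tpt1 (-0.73), Eif4ebp2 (-0.52) and Eif5 (-0.46) fell.

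Genes of amino acid supply rose, and a part of them were lower than in Th0 cells. Of the 20 cytosolic tRNA synthetases, which charge tRNAs, 16 rose, 4 did not pass, and 9 were lower in Treg than in Th0, where 5.79% of all genes differed in either direction. Under DESeq2 on the reads worked back from the values 10 of these rose. Their letters TGATGNAA, a core of the element bound by Atf4, stood in 3 of 12 promoters at hand, those of Aars, Gars and Tars, against 3.53% of all promoters. Gars was at 53.9, 49.6 and 40.9 CPM in naive, 153, 159.8 and 169 in Th0 and 104, 103 and 111 in Treg. Asns, asparagine synthetase, was at 0, 1.24 and 0 CPM in naive, 37.1, 26.6 and 46.5 in Th0 and 11.8, 14.8 and 9.8 in Treg, so both cultures lay above naive cells and Treg below Th0 (-1.50, adjusted p = 0.048). Psat1 of serine synthesis rose by 2.31, the mitochondrial folate enzyme Mthfd2 by 1.33 and the amino acid carrier Slc7a5 by 2.04, and all 3 were lower in Treg than in Th0 (-0.67, -0.63 and -0.84). Slc38a2, a carrier of neutral amino acids, fell from 1184, 1046 and 1215 to 331, 306 and 376 CPM.

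Genes of protein breakdown and folding rose. Of 37 proteasome genes 33 rose and 4 did not pass, with a median of 0.95. All 6 genes of the ATPase ring and 15 of the 17 of the core particle were among them. Psmb5, a catalytic subunit, went from 2.51, 8.67 and 3.51 to 24.8, 17.4 and 17.6 CPM and Psma7 from 202, 223 and 245 to 583, 471 and 505 CPM. The 8 genes of the CCT chaperonin, which folds actin and tubulin, rose with a median of 0.94, and the mitochondrial Hspd1 by 1.35. Of 27 chaperones tested 5 fell (18.5%, near the 18.1% of all genes tested). These were heat shock genes of the inducible kind, Hspa1b (-2.62), Hspa1a (mean 3.23 CPM in naive and 0 in Treg), Dnajb1 (-0.97), Dnaja1 (-0.89) and Hsph1 (-0.89). In the endoplasmic reticulum 21 of 31 genes rose. Xbp1, a transcription factor of the unfolded protein response, was at 27.6, 35.9 and 24.5 CPM in naive and 271, 258 and 214 CPM in Treg, and Sdf2l1 rose by 2.42. The chaperone Hspa5 (-0.69) and its partner Dnajb9 (-1.92) fell.

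Glycolysis rose at most of its steps. Of 28 genes 23 rose and 5 did not pass, with a median of 1.76, and the list went from 0.133% to 0.137% of the reads to 0.495% to 0.66%. In the order of the pathway, the glucose carrier Slc2a1 rose by 2.35, hexokinase Hk2 by 3.91, Gpi1 by 1.42, phosphofructokinase Pfkp by 1.76, the aldolases Aldoa and Aldoc by 2.67 and 6.90, and Tpi1 by 3.93. Further down, Gapdh rose by 2.20, Pgk1 by 3.12, Eno1 by 2.39, Pkm by 2.56, Ldha by 2.56 and the lactate exporter Slc16a3 by 6.63. Slc16a3 was at 1.25, 1.24 and 0 CPM in naive and 201, 215 and 111 CPM in Treg libraries. Aldoc was at 0, 1.24 and 0 CPM in naive and 152, 168 and 146 CPM in Treg, a gene nearly unread in naive cells. Ldhb was at 11.4 and 5.75 CPM and not called. Pkm, Pfkp, Slc16a1 and Slc2a3 were lower in Treg than in Th0 (-0.39, -0.44, -0.55 and -1.14). In the pentose phosphate branch 4 of 7 genes rose, led by Tkt (1.84).

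Genes of mitochondrial respiration rose too, with a smaller median. Of 75 nuclear genes of oxidative phosphorylation 63 rose, with a median of 0.88. Complex I had 29 of 35 genes higher, complex III with cytochrome c 10 of 10, complex IV 10 of 11 and the ATP synthase 13 of 15, while complex II had 1 of 4. Cox5a rose from 100.3, 91.7 and 69 to 289, 324 and 298 CPM, the largest change in the list (1.81), and Cox7a2l, a factor of supercomplex assembly, was the member that fell (-0.61). The form GCGCATGC of the site of NRF1, a factor of mitochondrial genes, stood on either strand in 9 of the 62 promoters at hand (14.5%). It stood in 2.31% of all promoters, 4.89% of those of the genes tested and 5.33% of those of the genes called higher. In the citrate cycle 18 of 25 genes rose, among them Slc25a1, the citrate carrier (2.94), Idh1 (2.47) and Acly (1.75), which splits citrate to acetyl-CoA. Ogdh fell (-0.49). Of 42 genes of mitochondrial translation and import 27 rose and 15 did not pass. The call of Tomm5 among them was lost under 14 of 17 other settings. Of 13 genes of the mitochondrial genome 7 were tested. The genes mt-Nd4l, mt-Co2, mt-Co3, mt-Atp6 and mt-Atp8 were at 0 in all naive and Treg libraries, and the reason was not tested. Of the 7 tested 4 rose, mt-Nd2 from 4401, 4393 and 4322 to 7769.9, 7524 and 8057 CPM. In contrast, mt-Cytb was at 2432, 2229 and 2184 CPM in naive and 2248, 2263 and 2244 CPM in Treg, with an interval of the change of -0.18 to 0.14.

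**Figure D4:**
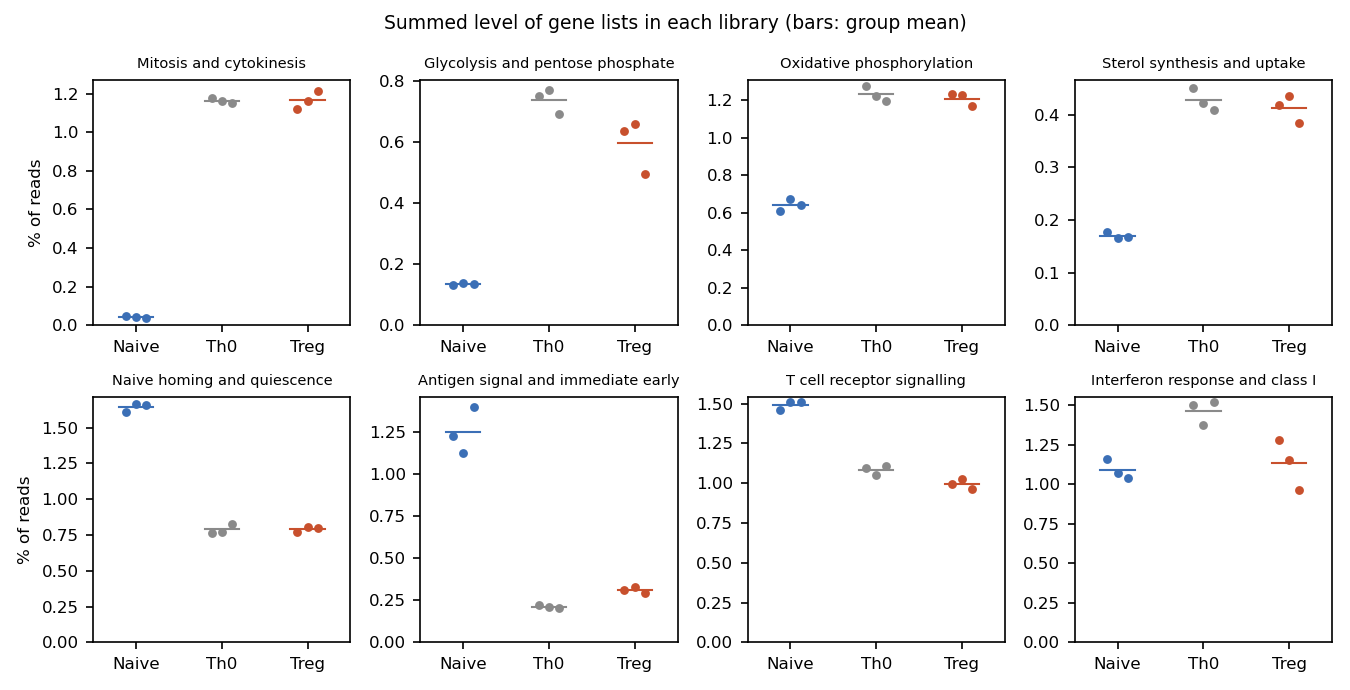
Share of reads (y axis, in percent) taken by 8 gene lists in each of the 9 libraries, with points for libraries and bars for group means. Mitosis, glycolysis, oxidative phosphorylation and sterol genes were higher in each Treg library than in any naive one, and naive homing, immediate early and T cell receptor genes lower.

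Genes of sterol synthesis rose along the pathway, and genes of sterol export fell. Of 34 genes 26 rose (76.5%, beside 25.2% of all genes tested) and 6 fell (17.6%, near the 18.1% of all), with a median of 2.20. From the first steps, Hmgcs1 rose by 3.23, Mvk by 2.23, Mvd by 2.74, Fdps by 3.47, Fdft1 by 2.34, Sqle by 3.28, Lss by 2.35 and Cyp51 by 3.18. Hmgcs1 was at 85.3, 65.7 and 88.8 CPM in naive and 748, 744 and 767 CPM in Treg. The regulator Srebf2 rose by 1.10. The genes that fell were the exporters Abca1 (-2.31) and Abcg1 (-1.20), Mylip (-2.50), a ubiquitin ligase, and the lysosomal Npc1 (-1.20), Npc2 (-0.44) and Lipa (-1.22). Abca1, Abcg1 and Mylip are known targets of the sterol sensor LXR. Npc2 was also lower in Treg than in Th0 (-0.49). The list took 0.165% to 0.178% of the reads in naive, 0.409% to 0.452% in Th0 and 0.385% to 0.435% in Treg.

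Of 24 sterol genes with a promoter sequence 20 (83.3%) held CCAAT, against 34.5% of all promoters. The sterol regulatory element searched, TCACNCCAC, stood in 1 of them, Hmgcs1, against 1.03% of all promoters. Its stretch is shown with the match in capitals.
Hmgcs1, chr13:119690190-119690246, plus strand: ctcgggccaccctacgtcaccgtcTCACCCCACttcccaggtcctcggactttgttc

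Of 30 fatty acid genes 18 rose, 1 fell, and the median was 1.45. Acaca, which makes malonyl-CoA, rose by 2.26, Fasn, the fatty acid synthase, by 2.44, the elongase Elovl6 by 4.83, and the desaturases Scd1 and Scd2 by 5.21 and 4.71. Scd2 was at 50.1, 34.7 and 33.9 CPM in naive and 1117, 1064 and 955 CPM in Treg. Of the oxidation genes, Cpt1a (39.2 and 36.4 CPM), Acadm and Acadvl were not called, and Cpt2 (1.53), Acadl (1.37) and Hadha (0.33) rose. Acss1, a mitochondrial acetyl-CoA synthetase, fell (-1.52).

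The study set out to find lipid synthesis genes raised in Treg cells, and went on with Acsbg1 and Acsl6. Both are acyl-CoA synthetases, enzymes that activate long-chain fatty acids. Acsbg1 (chr9:54604886-54661885, GRCm38.p6) was at 11.3, 6.19 and 8.18 CPM in naive, 10.6, 16.6 and 8.57 CPM in Th0 and 49.5, 58 and 51.9 CPM in Treg. It rose by 2.53 over naive cells (SE 0.31, adjusted p = 1.9e-06), and the difference from Th0 was 2.11 (adjusted p = 0.00016). Acsl6 (chr11:54303805-54364756) was at 0 in all 3 naive libraries, at 8.48, 11.1 and 9.8 CPM in Th0 and at 23.7, 56.7 and 62.7 CPM in Treg, at least 12.7-fold higher in Treg than the 3.76 CPM that 3 reads make in the shallowest naive library. Treg exceeded Th0 by 2.07 (adjusted p = 0.0055). Their relatives Acsl3, Acsl4 and Acsl5 rose by 1.78, 1.88 and 1.74 over naive cells, with Th0 means of 108, 191 and 194 CPM beside Treg means of 88.6, 177 and 150.4 CPM. Acsl1, at 21.1 and 22.7 CPM, was not called.

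Of 30 redox and iron genes 12 rose (40%, beside 25.2% of all genes tested) and 2 fell (6.67%, beside 18.1%). Tfrc, the transferrin receptor that takes up iron, went from 30.1, 54.5 and 32.7 to 416, 401 and 416 CPM (3.41), and thioredoxin Txn1 rose by 2.54 and peroxiredoxin Prdx1 by 1.27. Fth1, the ferritin heavy chain, fell by less (-0.29), a call lost under 3 of 17 other settings, 1 of them without Naive replicate 1. In the list of integrated stress and p53 targets 7 of 23 rose and 7 fell (30.4% each, beside 25.2% and 18.1% of all genes tested). Ppp1r15a, which reverses the block of translation in the integrated stress response, fell from 508, 499 and 573 to 25.8, 20.6 and 20.6 CPM (-4.50). Ddit3 and Atf4 of the same response changed by -1.99 and -0.42, and both were lower in Treg than in Th0 (-2.004 and -0.66). Sesn2 rose by 3.01 and Gadd45g by 2.26, while Gadd45a and Gadd45b fell by log2 changes of -2.87 and -2.71.

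Foxp3 (chrX:7579676-7595243) was highest in Treg libraries and was also read in naive cells. It was at 82.7, 91.7 and 88.8 CPM in naive, 13.8, 8.88 and 8.57 CPM in Th0 and 138, 191 and 207 CPM in Treg, so no library of a group overlapped another group. The rise over naive was 0.997 (SE 0.19, adjusted p = 0.00036) and the difference from Th0 was 3.99 (adjusted p = 3.1e-10). Of 29 tested Treg core genes 16 rose (55.2%, beside 25.2% of all genes tested) and 5 fell (17.2%, near the 18.1% of all). The other 8 did not pass, and the median was 0.997. Il2ra, the high-affinity chain of the IL-2 receptor, rose from 77.7, 84.2 and 64.3 to 1285, 1361 and 1351 CPM (4.13), and Socs2, a feedback gene of cytokine signalling, by 5.18, with Th0 means of 1313 and 892 CPM beside Treg means of 1332 and 865 CPM. Lrrc32, which holds latent TGF-beta on the Treg surface, rose from 3.76, 7.43 and 4.68 to 333, 331 and 280.1 CPM and exceeded Th0 by 1.22. The ectoenzymes Entpd1 and Nt5e, which turn ATP to adenosine, rose by 2.27 and 1.85, the integrin chain Itgae by 2.48 and Ikzf4 by 2.41, and each exceeded Th0 (2.07, 2.87, 4.49 and 1.14).

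Other Treg genes did not rise. Ikzf2, a factor of thymic Treg cells, was at 316, 261 and 270.03 CPM in naive and 66.8, 108 and 130.3 CPM in Treg and fell (-1.51). Izumo1r, a folate receptor of Treg cells, fell too (-0.83). Prdm1, a factor of effector cells, changed by -1.05, a call lost without Naive replicate 3 or without Treg replicate 1. Ctla4, the inhibitory receptor, was at 17.6, 13.6 and 29.2 CPM in naive and 12.9, 18 and 10.8 CPM in Treg, with a change of -0.46 that did not pass, and Nrp1 was at 61.5 and 73.5 CPM. Il10 was at 0.808 and 0.359 CPM in the mean and not called. Penk and Klrg1 fell to 0 in all Treg libraries from means of 3.25 and 3.99 CPM in naive, and the call of Klrg1 was lost with DESeq2.

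Of 26 tested genes of the TGF-beta pathway 8 rose and 8 fell (30.8% each, beside 25.2% and 18.1% of all genes tested), and the median was -0.08. The ligand gene Tgfb1 was at 53.3 and 45.6 CPM and not called. Of its receptors, Tgfbr2 went from 128, 115 and 129.8 to 48.5, 41.3 and 42.1 CPM (-1.48), Tgfbr3 changed by -1.31 and Tgfbr1 by 0.30, which did not pass. Smad3 fell from 58.9, 48.3 and 66.6 to 26.9, 28.4 and 24.5 CPM (-1.09, SE 0.19, adjusted p = 0.00015) and was lower than in Th0 as well (-0.70, adjusted p = 0.037), and Smad4 changed by -0.81. Smad2, at 42.6, 28.5 and 42.1 CPM in naive and 30.1, 28.4 and 34.3 CPM in Treg, was not called (-0.26, 95% interval -0.72 to 0.20). Among targets and feedback genes, Pmepa1, which sequesters Smads, rose from 84, 76.8 and 56.1 to 515, 629.7 and 585 CPM, Ldlrad4 by 2.10, Spsb1 by 2.01, the protease Furin by 1.09 and the corepressor Skil by 0.94. In Th0 those 5 genes were at means of 61.3, 0, 1.46, 19.5 and 23 CPM, and each was higher in Treg than in Th0 (3.28, 4.87, 5.10, 2.04 and 3.11). Smad7, the inhibitory Smad, was highest in naive cells, at 193, 217 and 231 CPM, against 14.8, 17.8 and 11 in Th0 and 87.2, 87 and 96 in Treg, so it fell from naive (-1.24) while it exceeded Th0 (2.57).

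**Figure D5:**
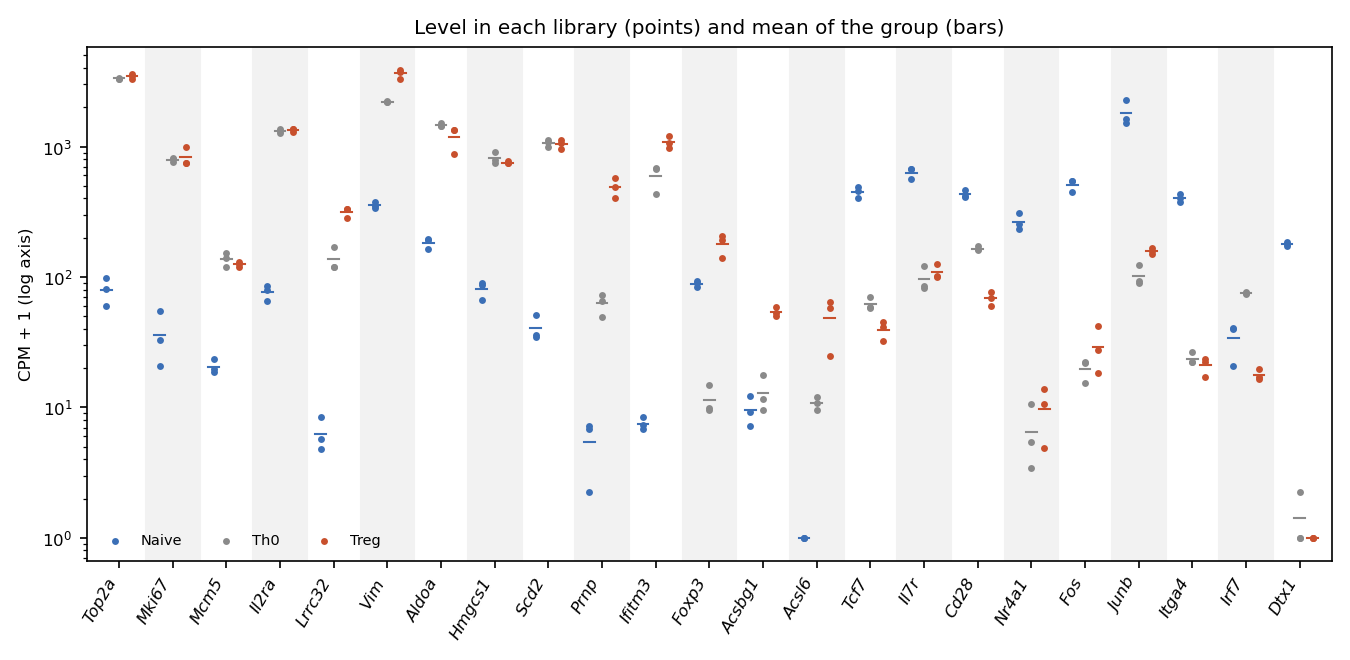
CPM + 1 (log axis) of 23 genes in each of the 9 libraries, with points for libraries and short bars for group means. The first 14 genes were higher in each Treg library than in any naive one and the last 9 lower, and for Foxp3 the Th0 libraries lie below both.

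Genes of the resting state fell together. Of 34 genes of naive homing and quiescence 27 fell and 4 rose, with a median of -1.23, and the list went from 1.61% to 1.67% of the reads to 0.768% to 0.806%. Tcf7, a factor of naive and memory cells, was at 490.2, 458 and 404 CPM in naive and 31.2, 40 and 44.1 CPM in Treg (-3.53, SE 0.14, adjusted p = 4.5e-13). The groups were far apart. Il7r, the receptor of the survival cytokine IL-7, fell from 666, 669 and 559 to 99.1, 99.9 and 125 CPM. The homing receptor Ccr7 changed by -1.17, and S1pr1, which lets cells leave lymph nodes, by -1.29. Actn1 changed by -3.30, Als2cl by -3.21 and Nsg2 by -3.85. The genes that rose were Ly6c2 (3.59), Ly6c1 (2.99), Treml2 (1.55) and Igfbp4 (0.73). The forkhead site GTAAACA stood in 1 of the 27 promoters of this list at hand (3.70%), against 3.06% of all promoters and 2.06% of those of the genes tested. Members of this list also differed between the cultures, in either direction: Satb1 was at 908 CPM in Th0 and 356 in Treg (-1.35), while Foxo1 was at 101 and 150.03 CPM (0.55). Of the 8 Gimap GTPases, survival factors of resting lymphocytes, 6 fell, led by Gimap6, from 352, 337 and 289 to 46.3, 47.1 and 50.9 CPM.

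Immediate early genes, the first to respond to a stimulus, were high in the naive libraries and had the lowest median of the 38 lists (-1.85). Of 41 genes 28 fell (68.3%, beside 18.1% of all genes tested) and 9 rose (22.0%, near the 25.2% of all). Their share of the reads went from 1.13% to 1.4% to 0.295% to 0.33%. Nr4a1, an orphan receptor induced by T cell receptor signals, was at 255, 233 and 306 CPM in naive and 9.69, 3.87 and 12.7 CPM in Treg (-4.88, SE 0.38, adjusted p = 5.4e-09). Of the AP-1 factors, Fos went from 543, 446 and 541 to 17.2, 26.4 and 41.1 CPM, Fosb changed by -4.56, Junb by -3.50 and Jun by -2.51. Egr1 changed by -4.45, the phosphatase Dusp1 by -3.08, and the mRNA-decay factor Zfp36 by -4.22. The inhibitors of NF-kB Nfkbia and Tnfaip3 changed by -3.03 and -4.09, with Nfkbia at 3424, 2961 and 4145 CPM in naive and 357, 481 and 447 CPM in Treg. In Th0 the list took 0.206% to 0.223% of the reads. The genes that rose were Ier3 (3.16), Irf8 (2.61), Myc (1.89), Crem (1.73), Dusp6 (1.71), Irf4 (1.68), Dusp4 (1.49), Bcl3 (1.45) and Nfkb2 (0.75).

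Of 43 genes of T cell receptor signalling 31 fell and 3 rose, with a median of -0.57. The receptor chains Cd3e, Cd247 and Trbc2 changed by -0.57, -0.86 and -0.74, and the kinase Lck by -0.27, while Zap70 at 96.9 and 108 CPM and Lat at 283 and 333 CPM were not called. The largest fall was that of Cd28, the main costimulatory receptor, from 466, 413 and 419.7 to 67.8, 59.3 and 75.4 CPM (-2.67), and Treg was lower than Th0 too (-1.28, adjusted p = 3e-07). Prkcq changed by -1.53, Dgka, which ends diacylglycerol signals, by -1.78, and the ubiquitin ligase Cblb by -1.46. The phosphatase Ptpn6 (0.71), Nfatc2 (0.65) and Ubash3b (0.57) rose, and the call of Ubash3b was lost under 10 of 17 other settings.

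The IL-2 receptor rose and the IL-6 receptor fell. Of 33 genes 14 rose (42.4%, beside 25.2% of all genes tested) and 10 fell (30.3%, beside 18.1%). Besides Il2ra, Il2rb rose by 2.04 and the feedback genes Cish and Socs1, which Stat5 induces, by 3.26 and 2.62. Il6ra and Il6st, the chains of the IL-6 receptor, changed by -1.58 and -1.87, and the kinase Jak1 by -0.92. Among helper genes 8 of 34 rose (23.5%, near the 25.2% of all genes tested) and 15 fell (44.1%, beside 18.1%). Lta, lymphotoxin, went from 6.27, 9.91 and 15.2 to 239, 233 and 225 CPM, Eomes rose by 3.09 and Runx3 by 1.78. Gzmb, a granzyme, rose to 22.6, 16.8 and 8.82 CPM from 3.76, 4.96 and 0 CPM, beside 611, 434 and 453 CPM in Th0 (-4.95). The chemokine Ccl5 fell from 69, 73.1 and 52.6 to 3.23, 1.29 and 2.94 CPM, and Gzma, Prf1 and Ifng changed by -2.57, -2.37 and -2.06. Of the NK and gamma-delta list, Ncr1, Klrb1c and Tyrobp were at 0 in Treg while the sum of the list rose, as given above. The part of NK cells in the falls of Ccl5, Gzma, Prf1 and Ifng was not tested. Il4 and Il17a were not among the genes tested.

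Receptors for trafficking and adhesion moved both ways. Of 29 genes 14 fell (48.3%, beside 18.1% of all genes tested) and 8 rose (27.6%, near the 25.2% of all). Cdh1, E-cadherin, was at 1.25, 3.72 and 1.17 CPM in naive, 0, 2.22 and 0 in Th0 and 173, 157 and 119 in Treg, and Cx3cr1, the fractalkine receptor, at 0, 1.24 and 1.17 CPM in naive, 1.06, 1.11 and 2.45 in Th0 and 71.1, 79.9 and 72.5 in Treg. For both, naive and Th0 lay near 0 and Treg was high (Treg minus Th0 6.66 and 4.93). Ccr4 rose by 2.04. Itga4, the integrin chain for entry into inflamed tissue, fell from 434, 372 and 403 to 16.2, 21.3 and 22.5 CPM (-4.28, SE 0.17, adjusted p = 2.6e-13), Gpr183 changed by -3.07, Cxcr3 by -2.56 and Ccr6 by -2.82. Ccr6 is also high in B cells, whose markers were lower in Treg, and their part was not tested. Cd44 was at 82.7, 86.7 and 79.5 CPM in naive and 77.5, 67.7 and 60.7 CPM in Treg and was not called.

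Of 34 costimulatory and checkpoint receptors 16 fell (47.1%, beside 18.1% of all genes tested) and 7 rose (20.6%, beside 25.2%). The tumour necrosis factor receptors Tnfrsf9, Tnfrsf4 and Tnfrsf18 rose by 3.27, 2.88 and 2.04. Cd40, usually a receptor of antigen-presenting cells, was at 0, 2.48 and 0 CPM in naive, 0, 1.11 and 1.22 in Th0 and 29.1, 36.7 and 50.9 in Treg. The B cell markers summed to 127 to 137 CPM in Treg, and the part of B cells in the Cd40 reads was not tested. The Cd40 ligand gene Cd40lg fell from 79, 80.5 and 79.5 to 6.46, 11.6 and 8.82 CPM. Slamf6 changed by -3.41, Cd27 by -2.07 and Cd226 by -2.05. Pdcd1 was at 4.88 and 3.85 CPM and not called.

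Interferon genes moved both ways, with a median of -0.08. Of 41 genes 12 rose (29.3%, near the 25.2% of all genes tested) and 16 fell (39.0%, beside 18.1%). Ifitm3, a membrane protein that blocks virus entry, was at 6.27, 7.43 and 5.84 CPM in naive, 429, 668 and 682 in Th0 and 1061, 1194 and 981 in Treg (7.17 over naive, SE 0.15). Ly6a and Ly6e rose by 3.40 and 3.28, and Isg20 by 2.45. Stat2, Igtp and Xaf1 rose by 0.82, 0.79 and 0.82. Among the members that fell, Irf7 went from 38.9, 39.6 and 19.9 to 16.2, 15.5 and 18.6 CPM, Ifit1 from 13.8, 9.91 and 8.18 to 0, 0.645 and 0.98 CPM, and Rsad2 from 10, 6.19 and 10.5 CPM to 0 in all 3 Treg libraries. In Th0 those 3 were at means of 74.4, 16.1 and 6.68 CPM, and 24 of the 41 genes were lower in Treg than in Th0. Isg15 was at 11.3 CPM in naive and 12.8 CPM in Treg, beside 126 CPM in Th0 (-3.24). The class I genes B2m, H2-D1 and H2-K1 changed by -0.37, -0.32 and -0.59.

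The interferon-stimulated response element, searched on both strands, stood in 13 of the 30 promoters of this list at hand (43.3%), against 3.05% of all promoters. The holders moved both ways. Rsad2, Ifit1, Gbp2, B2m and H2-T23 fell, Stat2 and Igtp rose, and Isg15, Ifit3, Trim30a, Bst2, Gbp7 and Irgm1 were not called. Rsad2 and Ifit1, the holders with the largest falls, carry it as follows, with 1 match of each in capitals. Ifit1 holds a further match, TTTCAGTTTC, 85 to 76 bases before the start, which is left in lower case in its stretch.
Rsad2, chr12:26456539-26456596, minus strand: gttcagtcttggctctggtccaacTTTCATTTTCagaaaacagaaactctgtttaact
Ifit1, chr19:34640761-34640818, plus strand: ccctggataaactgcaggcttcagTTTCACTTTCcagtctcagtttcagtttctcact

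Of 31 genes of cell survival and death 10 rose and 8 fell, near the 25.2% and 18.1% of all genes. Bcl2, the survival factor, rose from 602, 486 and 630.1 to 1926, 2002 and 1732 CPM (1.73) and Bcl2l1 by 1.29, while Mcl1, of the same family, fell from 523, 499 and 576 to 226, 239 and 243 CPM (-1.17). Without Treg replicate 2 the number that rose was 6. Bak1, which carries out cell death, rose by 1.03. Bcl2l11 (-0.66) and the death receptor Fas (-1.13) fell, and the call of Fas was lost without Treg replicate 2 or without Treg replicate 3.

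The cytoskeleton took a larger part of the reads, 4.36% to 4.46% in Treg against 2.78% to 2.94% in naive. Of 51 genes 27 rose (52.9%, beside 25.2% of all genes tested) and 7 fell (13.7%, beside 18.1%). Vim, the intermediate filament vimentin, went from 349, 375 and 335 to 3837, 3759 and 3308 CPM (3.36, SE 0.08, adjusted p = 1.1e-16) and exceeded Th0 by 0.71. The tubulins Tubb5 and Tuba1b rose by 2.28 and 2.32, the lamin Lmnb1 by 2.98 and the galectin Lgals1 by 2.80. Actb rose by 0.52. Evl (-1.43), Flna (-1.16) and S100a11 (-1.34) fell.

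Among lineage factors of the Ikaros, E and Id families 10 of 27 rose and 10 fell (37.0% each, beside 25.2% and 18.1% of all genes tested). Bhlhe40 rose by 2.62, Nfil3 by 2.84 and Id3 by 1.05. Ikzf1, Ikaros itself, changed by -1.24, Bcl11b, a keeper of T cell identity, by -1.02, and Sox4 by -2.45. Bcl11a, a factor of B cells among others, was at 13.8, 23.5 and 3.51 CPM in naive and 0 in Treg. The B cell markers summed lower in Treg too, and the part of B cells was not tested. Id2 fell from 361, 398 and 374 to 339, 275 and 235 CPM and was at 933, 833 and 621 CPM in Th0 (-1.48).

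Lysosomal genes gave 8 rises and 5 falls of 34, near the background. Ctsw, a cathepsin of cytotoxic cells, was at 45.1, 32.2 and 28.1 CPM in naive, 15.9, 17.8 and 13.5 in Th0 and 343, 348 and 278 in Treg (3.19 over naive, 4.28 over Th0). Gabarapl1 of autophagy rose by 4.16 and Ctsc by 2.10, and Ctsl changed by -2.43.

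In the list of noncoding RNAs 7 of 19 rose and 5 fell (36.8% and 26.3%, beside 25.2% and 18.1% of all genes tested), with a median of -0.06. The share of the list went from 1.43% to 1.61% of the reads to 0.471% to 0.556%. Malat1, a nuclear RNA, was at 11809, 12697 and 13963 CPM in naive and 2187, 2206 and 2334 CPM in Treg (-2.51, SE 0.08). The snoRNA hosts Snhg8 and Snhg12 changed by -1.17 and -1.06, and Gas5 rose by 0.35. By annotated type, 28.5% of 10744 protein-coding genes rose and 17.8% fell, with a median of 0.14. Of 737 loci of the type TEC, whose transcripts still await experimental proof, 7.19% rose and 27.0% fell, and sense-intronic RNAs (4 higher and 21 lower of 100) and antisense RNAs (9.21% and 21.5% of 228) leaned the same way. Small nucleolar RNAs leaned the other way, with 25 of 69 higher and 6 lower. The counting's strand setting is not given in the sources used here, so reads of antisense and sense-intronic loci may come from the gene they overlap. Calls also followed the level: 22.9% of the genes under 3 CPM were called and 77.8% of those at 1000 CPM or more.

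Some genes were read in 1 state and not the other. At 0 in all naive and at 10 CPM or more in all Treg libraries were 27 genes (0.207%), and 6 (0.0459%) showed the reverse. Enah (chr1:181896384-182027556), a regulator of actin filaments, was at 0 in the naive libraries, 361, 391 and 363 CPM in Th0 and 206, 241 and 245 CPM in Treg, at least 61.3-fold above the 3-read floor of 3.76 CPM. The agouti gene a was at 100.1, 118 and 114 CPM in Treg (at least 29.4-fold higher) and Myl10, a myosin light chain, at 61.4, 79.3 and 67.6 CPM (at least 18.5-fold). Their Th0 means were 36.0 and 101 CPM. Tead1, a factor of the Hippo pathway, was at 4.24, 1.11 and 3.67 CPM in Th0 and 31.2, 64.5 and 65.6 CPM in Treg, at least 14.3-fold above naive. Pcx, pyruvate carboxylase, reached 45.2, 49 and 26.4 CPM (at least 10.7-fold), Prok1 30.1, 42.5 and 45.1 CPM (at least 10.4-fold) and Slco4a1 35.5, 31.6 and 50 CPM (at least 10.4-fold). Th0 means were 35.8 CPM for Pcx, 83.8 CPM for Prok1, above its Treg libraries, and 24.2 CPM for Slco4a1. Of the 6 genes lost, 4 were of the red cell, plasma cell or B cell lists (Igkc, Hba-a2, Hbb-bt and Jchain). Dtx1 (chr5:120680203-120711867), an E3 ligase that acts on Notch, was at 179, 172 and 184 CPM in naive, 0, 0 and 1.22 in Th0 and 0 in all 3 Treg libraries, at least 55.2-fold lower than in naive, and Lypd6b was at 11.3, 24.8 and 14 CPM in naive and 0 in Treg.

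Other large rises in genes read in both groups were those of Ifitm2, Ifitm1, Prnp, Sema7a and Lif. Ifitm2 was at 1.25, 0 and 2.34 CPM in naive, 41.3, 79.9 and 79.6 in Th0 and 204, 260.4 and 232 in Treg, and Ifitm1 at 2.51, 1.24 and 2.34 CPM in naive, 17, 11.1 and 15.9 in Th0 and 165, 245 and 222 in Treg. Reads shared between the close copies of this family cannot be assigned with certainty. Prnp (chr2:131909928-131938436), the prion protein, went from 1.25, 6.19 and 5.84 to 404, 491 and 575 CPM (6.66, SE 0.32), with 48.7, 72.1 and 64.9 CPM in Th0. Sema7a, a semaphorin that binds integrins, rose by 6.47, the cytokine Lif by 6.21, the division genes Cep55 and E2f8 by 6.13 and 5.99 and Pygl, which releases glucose from glycogen, by 6.06. The largest falls outside those given were of the sialyltransferase St8sia6, from 149, 178 and 173 to 1.08, 3.22 and 1.96 CPM, the Polycomb-like Scml4 (-5.42), Ttc28 (-4.77), Scg5 (-4.62), Rapgef4 (-4.28) and Rgs2 (-4.28), which limits G protein signals.

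Among the genes with the most reads that changed at least 2-fold, Ptma went from 742, 859.8 and 976 to 1895, 2297 and 2034 CPM and Nucks1 from 402, 364 and 365 to 1005, 1028 and 993 CPM. Shisa5 fell from 2259, 2238 and 2099 to 675, 709 and 626 CPM, Smc6 changed by -1.47, Klf13 by -1.32 and the helicase Ddx5 by -1.42. Snord89, a small nucleolar RNA, was at 2313, 1669 and 1479 CPM in naive, 152, 229 and 206 in Th0 and 598, 516 and 712 in Treg. The 5 of the 100 most read genes with the smallest changes were Rps15a, mt-Cytb, Rps13, mt-Rnr1 and Tpr, a protein of the nuclear pore at 966 ± 30.1 and 941 ± 33 CPM (SD, n = 3, interval of the change -0.19 to 0.12). Under quantile scaling Rps15a and mt-Rnr1 did pass, with changes of 0.19 and -0.15.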

How the data were processed

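RNA was measured by 3' tag sequencing in 3 naive, 3 Th0 and 3 Treg libraries of the 29 samples of the series, of which 20 are not analysed here. Per the submitters' processing notes, STAR 2.7.9a, Subread 2.0.1 and the build mm10 were among the tools and builds used. The authors deposited a gene table named as TPM whose columns each sum to 1e6, and every value is a whole multiple of what 1 read is worth in its library (tolerance 0.01 read), so the values are treated as CPM with no length term. Reads were worked back from these steps, and 1 read is worth 0.645 to 1.25 CPM in the 6 libraries compared. Groups were taken from the sample labels. Symbols turned into dates by a spreadsheet were restored for 27 genes from their Ensembl IDs, and 54409 of 54532 IDs have a name in the reference table.

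Changes were tested with limma 3.58.1 (R 4.3.3), with an intensity trend, on log2(CPM + 1) for genes at 1 CPM or more in at least 3 of the 6 naive and Treg libraries. All 9 libraries entered 1 fit, which shares the estimate of the spread, with the Benjamini-Hochberg adjustment over all genes tested and a threshold of 0.05. Treg and Th0 share the naive libraries as controls, so the difference between the cultures was read from Treg minus Th0 in the same fit. The procedure was tested on simulated data in which few genes changed, all of them well read in naive cells. That test does not cover changes of a large part of the genes or of genes with few reads. Alternatives were other pseudocounts, filters and scalings, the 6 libraries alone, edgeR 4.0.16 and DESeq2 1.42.0 on the reads worked back, the replicate number as a block, and each library left out. The design had assumed TPM.

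Genes were named by rule: the 14 largest rises and falls with groups that do not overlap and a mean of 20 CPM or more in the higher group, the 8 with the most reads in each direction with at least a 2-fold change, up to 4 rises and 4 falls per list with the members needed to give a pathway in order, the 5 smallest changes among the 100 most read genes, and Acsbg1, Acsl6, Smad2, Smad3 and Foxp3. Genes named beyond this were chosen after their values were seen, and some genes of the lists are not reported here. The members and lists were chosen with earlier results of these data known. Gene positions and promoter sequences are RefSeq's on GRCm38.p6, and 11587 genes tested have a position. The locus Gm42418, which overlaps ribosomal RNA repeats, took 10.3% to 11.4% of naive and 7.11% to 8.78% of Treg reads and was kept in the library totals. Deviations from the group means correlated weakly over genes, at -0.0035 to 0.0342 for same-numbered and -0.0274 to 0.0201 for differently numbered libraries. At these read depths such weak correlations cannot decide whether the numbers pair the libraries.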

Additional observations from a re-analysis of the deposited data

Results flagged for a closer look

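Of 49 genes named for their size of change, their read number or the study's question, 21 changed from naive by a different amount in Treg than in Th0 at an adjusted p below 0.05 (limma), a difference that equals Treg minus Th0 since both are set against the naive libraries. Over all 13075 genes tested 757 (5.79%) did so. The 49 were picked partly for large changes and for the study's question, so their share is not a rate for genes at large. Among genes that rose, Treg exceeded Th0 for Foxp3 (3.99), Ifitm1 (3.76), Prnp (2.97), Sema7a (2.52), Pygl (2.27), Acsbg1 (2.11), Acsl6 (2.07), Ifitm2 (1.83), the agouti gene a (1.62), Ifitm3 (0.89) and Vim (0.71), all in log2 units. Enah rose less in Treg than in Th0 (-0.69). Among genes that fell from naive, Treg lay below Th0 for Ccl5 (-2.77), Scml4 (-1.54), Smad3 (-0.70), Shisa5 (-0.59) and Malat1 (-0.28). Treg lay above Th0 for Snord89 (1.64), Fosb (1.15), Rgs2 (0.93) and Nfkbia (0.47), which had fallen further in Th0. Foxp3 differed in direction, at means of 87.8 CPM in naive, 10.4 CPM in Th0 and 179 CPM in Treg. Groups of 3 libraries were not tested for outliers.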

How the results depend on the processing

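The counts of genes higher and lower in Treg stayed within 1.5 times the reported 3293 and 2369 under all 17 alternatives. DESeq2 gave 2333 higher and 2107 lower, edgeR 2986 and 2806, a filter of 10 CPM 2843 and 1945, no filter 3252 and 2295, no trend 2999 and 2160, a pseudocount of 0.1 gave 3150 and 2165 and of 5 gave 3309 and 2460, the 6 libraries alone 3191 and 2414, quantile scaling 2723 and 2898, and rescaling without Gm42418, mitochondrial and ribosomal protein genes 3096 and 2552. With 1 library left out the counts were 2824 to 3089 higher and 2032 to 2124 lower. With the replicate number as a block they were 3303 and 2354. Whether the numbers pair the libraries is not known, so neither is the meaning of this block. Of the genes called, 2262 higher and 1496 lower kept their call in all alternatives that gave them a value. Of 4735 alternative values for the 280 named genes 4675 kept direction and side of the threshold, 58 values of 16 genes no longer passed, 2 newly passed, and 0 changed direction with a call. Calls were lost most for Tomm5 (14 alternatives), Ubash3b (10), H2-T23 (6), Gla (5) and Dancr (4), and the cause was not tested. Of the counts per list 33 of 1598 values moved by over 1.5 times, among them the rises in amino acid transport (13 of 28 with DESeq2, 20 as reported). At these depths 3 reads make 1.93 to 3.76 CPM, so changes of genes near that level could not be sized.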

Other observations

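Among protein-coding genes grouped by the start of their symbols, 55 groups had 20 or more tested members. Of all protein-coding genes tested 28.5% rose and 17.8% fell. Histone genes (symbols with Hist) were the highest by median: 39 of 51 rose and 2 fell, with a median of 2.07, although the tags came from polyadenylated RNA and most replication histone transcripts carry no poly(A) tail. Of 20 nucleoporins (Nup) 12 rose and 1 fell, of 33 centrosomal proteins (Cep) 18 rose and 3 fell, and of 27 kinesins (Kif) 13 rose and 4 fell. Surface antigens with Cd symbols went the other way, with 7 of 61 higher and 32 lower and a median of -0.57. The zinc finger genes (Zfp) had 6.19% of 291 higher and 10.3% lower, beside 28.5% and 17.8% of protein-coding genes. Helicases of the Ddx group had 3 of 34 higher (8.82%) and 7 lower (20.6%, near the 17.8% of protein-coding genes). Carriers of the Slc families had 54 of 174 higher (31.0%) and 22 lower (12.6%), beside 28.5% and 17.8% of protein-coding genes.

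Along the chromosomes 8 runs of 6 neighbouring tested genes shared a call. A run at chr6:125215581-125494760 (GRCm38.p6) was lower, with Vamp1, Tapbpl, Cd27, 4930417O13Rik, Tnfrsf1a and Cd9. A run at chr8:120581266-121108413 was higher, with Gins2, 1190005I06Rik, Emc8, Cox4i1, Irf8 and Mthfsd. Whether such runs are more frequent than the calls alone would give was not tested.

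By mean CPM, some genes lay on opposite sides of naive cells in the 2 cultures, and were chosen after their values were seen. Itgae was at 2.51, 6.19 and 4.68 CPM in naive, 0, 0 and 1.22 CPM in Th0 and 28, 31.6 and 25.5 CPM in Treg. Its naive and Th0 values lie near or below the 3.67 CPM that 3 reads make in the shallowest Th0 library, so its fall in Th0 cannot be sized. Tnfsf8, the CD30 ligand, was at 75.2, 70.6 and 70.1 CPM in naive, 153, 132 and 181 CPM in Th0 and 32.3, 34.2 and 35.3 CPM in Treg.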
